A study of Mus musculus with 4 samples.

Results

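The cells described here were macrophages of a mouse melanoma that carried transcripts of complement component C1q but almost none of the Folr2 and Lyve1 program. They were chosen by their own transcripts. A cell barcode counted as such a macrophage when it held at least 500 genes and at most 10% mitochondrial UMIs, and at least 10 UMIs of C1qa, C1qb and C1qc together per 10000 of its UMIs. A UMI (unique molecular identifier) stands for 1 captured RNA molecule. It also had to hold at most 2 UMIs of Folr2, Lyve1, Cbr2 and Cd5l together, at most 2 of Ccr7, at most 1 of Xcr1 and Clec9a together, at most 1 of Mki67 and Top2a together, and fewer than 10 of Retnla per 10000. The 4 libraries held 32523 deposited barcodes, of which 26882 passed the gene and mitochondrial limits and 4135 met the whole rule.

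B16-F10 melanoma cells, 500000 per C57BL/6 mouse, were placed under the skin, and on day 12 the tumors were injected with adenovirus. Ad-Null is the control virus, labelled NULL. Ad-MEM40 carries a CD40 ligand construct, named ISF35 in its treatment label, Ad-mIFNB carries mouse interferon beta, and Ad-COMBO tumors received both. All 4 groups share the tumor line, the strain and an adenovirus injection, so none is an uninjected tumor, and the labels used here give neither the age and sex of the mice nor the time from injection to harvest. Each group is 1 library of CD11c+ MHC-II+ sorted cells from 3 pooled tumors, and the labels call the sorted cells DC (dendritic cells). No treatment has a replicate library, so no difference below has a test, and differences between tumors cannot be told apart from differences between treatments. Intervals in parentheses are exact 95% intervals, and they cover counting error only. Values are listed in the order Ad-Null, Ad-MEM40, Ad-mIFNB, Ad-COMBO unless a sentence says otherwise.

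C1q is the recognition unit of the classical complement pathway, and in tissues it is made chiefly by macrophages rather than by the liver. In tumors, C1q-expressing macrophages take up dying cells and debris, and they present antigen on MHC class II. One kind carries the folate receptor Folr2 and the hyaluronan receptor Lyve1 and resembles macrophages that live in the tissue, while others arise from blood monocytes that enter the tumor. Interferon beta signals through the receptor chains Ifnar1 and Ifnar2 to the ISGF3 complex, which binds interferon-stimulated response elements in the promoters of antiviral genes. CD40, a receptor on macrophages and dendritic cells, is engaged by CD40 ligand on T cells and signals through NF-kB.

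There were 1045 such macrophages in Ad-Null, 2891 in Ad-MEM40, 148 in Ad-mIFNB and 51 in Ad-COMBO. Of the barcodes that passed, they made up 11.9% (11.3 to 12.6) with Ad-Null and 18.5% (17.9 to 19.1) with Ad-MEM40. The shares were 8.18% (6.96 to 9.54) for Ad-mIFNB and 7.60% (5.71 to 9.87) for Ad-COMBO. The share was thus highest with the CD40 ligand virus, and the intervals of both interferon beta libraries lay below that of Ad-Null. These are shares of sorted cells, which the CD11c and MHC class II gate can set. The upper limits on Ccr7, on Xcr1 and Clec9a, on Mki67 and Top2a and on the Folr2 program are raw counts. Shallower cells meet them more easily, and the part of depth in these shares was not tested. The median depth of the macrophages was 10775, 6715, 11341 and 5793 UMIs per cell, against 15277, 9483, 13615.5 and 11434 for all barcodes that passed. Their summed UMIs were 13294578, 22503213, 2143482 and 494298. With 51 cells in Ad-COMBO a single cell can carry much of a gene's total there, and that cell's share is given where it is large.

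The chosen cells spanned a wide range of C1q. Their median was 45.4, 48.1, 56.1 and 60.4 C1q UMIs per 10000, and the highest cell of each library stood at 223, 307, 271 and 277. Just inside the limit, 68, 143, 5 and 0 cells had 10 to under 12, and just outside it 85, 210, 9 and 2 cells that met every other criterion had 8 to under 10. Of the Folr2, Lyve1, Cbr2 and Cd5l UMIs, 848, 2178, 116 and 42 cells had none and 52, 207, 10 and 2 had the 2 allowed, while 27, 127, 6 and 3 cells were just outside with 3. The last limit is a raw count and depends on depth. The C1q cells above it, called Folr2-program macrophages here, numbered 166, 709, 43 and 19 and were deeper, with medians of 19189, 12280, 24515 and 19671 UMIs. Between 1 and 11 of the chosen barcodes of a library also occurred in another library. No doublets were removed; a doublet caller, Scrublet, set to the share of doublets for the load, marked 91, 411, 0 and 0 of the chosen cells.

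**Figure D1:**
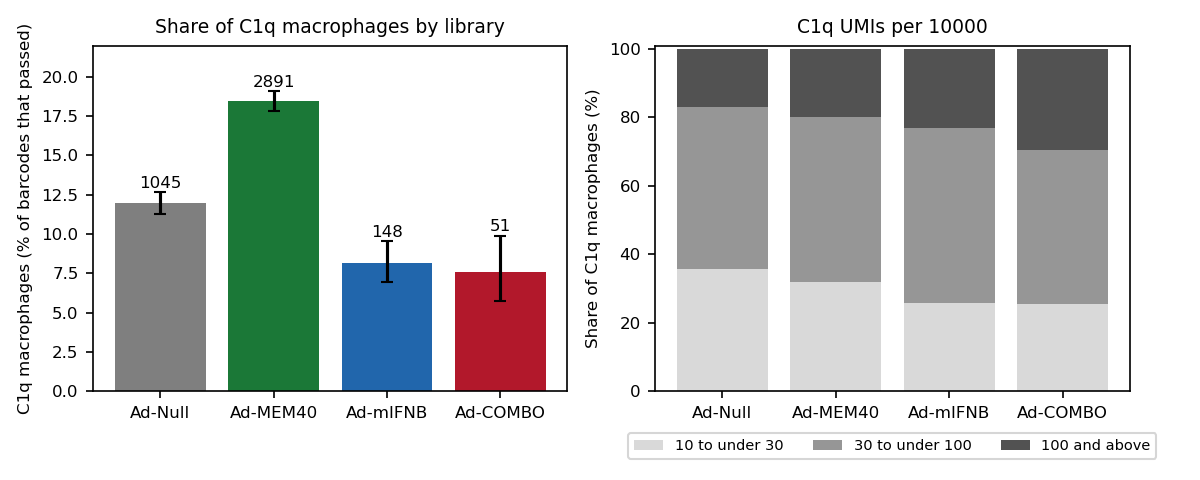
Number of C1q macrophages without the Folr2 program, their percentage of all barcodes that passed in each library with exact 95% intervals, and the percentage of them in 3 classes of C1q UMIs per 10000. The share is 18.5% in Ad-MEM40 and 7.60% in Ad-COMBO, and Ad-COMBO rests on 51 cells.

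The macrophage name was set against genes the rule did not use. Levels are given in CPM, the summed UMIs of a gene scaled to 1000000 summed UMIs of the cells. Cells with at least 3 UMIs of Xcr1 and Clec9a, markers of type 1 conventional dendritic cells (cDC1), served as the set that should lack macrophage genes. They numbered 1429, 1911, 275 and 140, with median depths of 23384, 14481, 21363 and 23350 UMIs. Of 22 macrophage identity genes, 21 were at least 1.5-fold higher in the C1q macrophages than in the cDC1 set in each library, and the median log2 ratios were 2.23, 1.93, 2.58 and 3.03. A log2 ratio here is that of CPM + 5 in the first group to CPM + 5 in the second. Against all other barcodes that passed, 20, 18, 18 and 20 of the 22 were at least 1.5-fold higher. The 22 include Ms4a7, Apoe, Ccl12 and Vcam1, which are markers given for these cells. The share over all genes was not computed, so these counts have no background beside them. Of 10 cDC1 genes 9, 10, 9 and 9 were lower than in the cDC1 set. Xcr1 and Clec9a counts separated these sets, so that result was fixed by the selection. Of 12 genes of type 2 conventional dendritic cells (cDC2) 10, 8, 8 and 9 were lower than in all other barcodes. Against the cDC1 set 4, 4, 6 and 7 of them were lower and 3, 3, 4 and 4 higher. Of 14 monocyte genes 10, 10, 8 and 7 were higher than in the cDC1 set and 2, 1, 3 and 3 lower. The cDC1 set thus does not tell macrophages from monocytes. Against all other barcodes 6, 3, 4 and 5 monocyte genes were higher and 4, 3, 5 and 7 lower.

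Among the markers given for the cells, the C1q genes, which chose them, stood at 2052, 2301, 2375 and 3241 CPM for C1qa, 2535, 2971, 2911 and 3122 CPM for C1qb and 1449, 1551, 1718 and 2355 CPM for C1qc. Ms4a7, a membrane protein of macrophages, stood at 393, 562, 577 and 916 CPM, against 50.5, 111, 89.0 and 114 CPM in the cDC1 set. Apoe, which carries lipids out of cells, stood at 1758, 2237, 1125 and 2685 CPM, but 1 cell held 38.1% of its UMIs in Ad-COMBO. Ccl12, a chemokine for monocytes, stood at 544, 423, 428 and 581 CPM, and Vcam1, an adhesion molecule of macrophages and endothelium, at 55.4, 57.5, 18.7 and 74.9 CPM. Vcam1 was thus lowest in Ad-mIFNB, while Ms4a7 was lowest in Ad-Null. Adgre1, which encodes F4/80, stood at 106, 150.2, 103 and 159.8 CPM, and Mertk, a receptor for the uptake of dying cells, at 28.2, 30.4, 26.1 and 82.9 CPM.

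Depth was matched by thinning each cell to 1000 UMIs, which left out shallower cells and kept 966, 2792, 142 and 49. Ms4a7 then had a UMI in 25.5, 31.1, 37.3 and 32.7% of the C1q macrophages and in 2.66, 5.18, 2.91 and 3.57% of the cDC1 set, and without thinning in 53.7, 59.4, 62.8 and 62.7% and 17.1, 24.2, 13.1 and 11.4%. For Adgre1 the thinned shares were 7.97, 12.3, 9.86 and 20.4% against 1.19, 2.30, 1.09 and 1.43%, and the unthinned ones 46.9, 46.0, 52.0 and 54.9% against 16.4, 21.5, 11.6 and 9.29%. Both genes were above their share in the cDC1 set, where free RNA can give UMIs. Flt3, the growth factor receptor of conventional dendritic cells, was found in 0.725, 1.83, 0 and 0% of the thinned C1q macrophages and in 11.5, 12.3, 12.4 and 13.6% of the cDC1 set. The count of 0 allows up to 2.11% of 142 cells in Ad-mIFNB and up to 6.12% of 49 cells in Ad-COMBO to hold an Flt3 UMI at this thinned depth, and it sets no limit on cells that express the gene. Unthinned, the Flt3 shares were 6.32, 6.71, 2.70 and 0% and 86.6, 78.8, 79.6 and 89.3%. Of the other lineages, the summed level of 10 T and NK cell genes was 1.65, 4.13, 1.40 and 0 CPM (3 UMIs would be 6.07 CPM in Ad-COMBO), that of 6 B cell genes 11.1, 14.9, 14.9 and 14.2 CPM, and that of 8 neutrophil genes 26.9, 36.4, 45.7 and 38.4 CPM. Sums of dendritic cell genes were larger, at 761, 796, 573 and 676 CPM for 10 cDC1 genes and 913, 806, 796 and 465 CPM for 12 cDC2 genes. That of 10 genes of plasmacytoid dendritic cells was 961, 1082, 1409 and 1529 CPM. Of this last sum Bst2, which interferon also induces, made up 500.4, 587, 1061 and 1167 CPM, while the defining marker Siglech stood at 16.8, 8.58, 0 and 0 CPM. The part of other lineages in the results below was not tested.

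Cells with little and with much C1q differed in other genes, although C1q itself defined these classes and every gene shares the cells' totals, so the values describe the set only. In classes of 10 to under 30, 30 to under 100, and at least 100 C1q UMIs per 10000, Ad-Null held 374, 495 and 176 cells, Ad-MEM40 918, 1402 and 571, Ad-mIFNB 38, 76 and 34, and Ad-COMBO 13, 23 and 15. The summed level of the 22 macrophage identity genes was 5003, 8512 and 15259 CPM over these classes in Ad-Null and 5805, 9414 and 15652 CPM in Ad-MEM40. Monocyte genes were lower in each successive class, from 3298 over 2204 to 709.7 CPM in Ad-Null and from 3027 over 2581 to 1149 CPM in Ad-MEM40. Apoe stood at 453, 1517 and 4835 CPM in Ad-Null, Ms4a7 at 74.4, 360.4 and 1066 CPM, and Ccl8, a chemokine for monocytes, at 51.1, 244 and 919 CPM. Ccr2, the receptor that brings monocytes out of the bone marrow, stood at 378, 257 and 102 CPM and Fn1, which encodes fibronectin, at 459, 237 and 46.2 CPM. The set thus ran from monocyte-rich to macrophage-rich profiles in both large libraries. The order was incomplete in the small libraries. Over the classes the monocyte sum was 1998, 2266 and 1476 CPM in Ad-mIFNB and 648, 1039 and 814 CPM in Ad-COMBO. The macrophage sum was 7916, 7176 and 12779.5 CPM in Ad-mIFNB, and in Ad-COMBO it was higher in each successive class.

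MHC class II and cDC2 genes were lower in each successive class in Ad-Null, Ad-MEM40 and Ad-mIFNB, but not in Ad-COMBO. The summed level of 12 MHC class II presentation genes was 30159.5, 23972 and 16645 CPM over the C1q classes in Ad-Null, and 10250, 14425 and 14587 CPM in Ad-COMBO. That of 12 cDC2 genes was 1411, 807 and 347 CPM in Ad-Null, and 216, 300.0 and 826 CPM in Ad-COMBO. Interferon genes were nearly flat in Ad-Null, at 3189, 3107 and 3165 CPM for 28 type I interferon response genes, and stood at 11140.5, 10042 and 10385 CPM in Ad-mIFNB. In Ad-COMBO they were lower in each successive class, at 15079.8, 11860.5 and 7443.5 CPM, with 13, 23 and 15 cells behind the values.

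**Figure D2:**
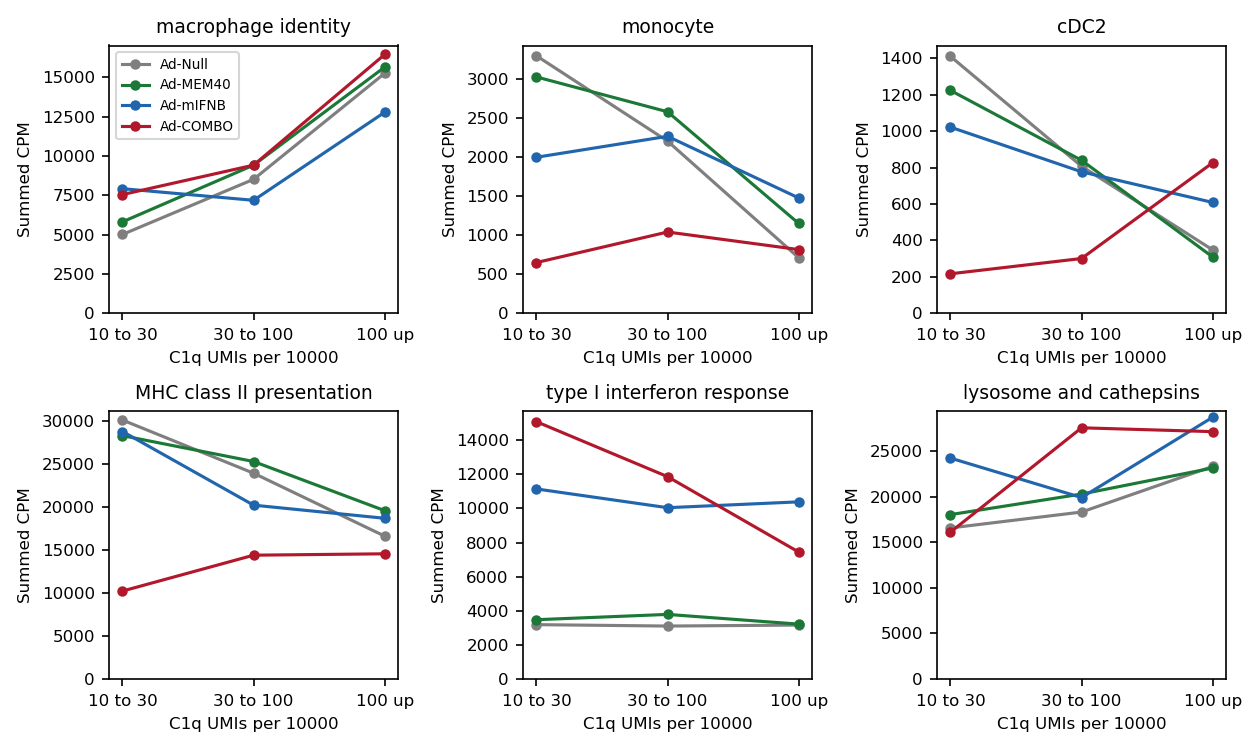
Summed CPM of macrophage, monocyte, MHC class II and other gene lists in the 3 C1q classes of the C1q macrophages, by library. In Ad-Null the macrophage sum goes from 5003 to 15259 CPM and the monocyte sum from 3298 to 709.7 CPM between the lowest and the highest class.

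The Folr2-program macrophages were the nearest other cells. They made up 13.7% (11.8 to 15.8), 19.7% (18.4 to 21.03), 22.5% (16.8 to 29.1) and 27.1% (17.2 to 39.1) of the 2 sets together. The cells were split by Folr2, Lyve1, Cbr2 and Cd5l counts in the same transcripts, so this side-by-side account describes the split and tests nothing. Of 2521 genes compared, 1125 lay on the same side in all 4 libraries, 13 (0.516%) were at least 1.5-fold higher and 64 (2.54%) at least 1.5-fold lower in every library in the macrophages without the program. The 10 genes named on each side had the largest ratio in the library where the gene's ratio was smallest.

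Among the 10 higher without the program, Dusp2, a phosphatase of activated leukocytes, stood at 87.1, 117, 88.2 and 132 CPM against 35.7, 53.1, 42.3 and 24.1 CPM with the program. For the survival gene Bcl2a1d the levels were 200.5, 140.1, 296 and 261 CPM against 89.6, 71.1, 102 and 48.3 CPM. Cxcl9, a chemokine that draws T cells through CXCR3, stood at 612, 579, 78.4 and 82.9 CPM without and 355, 263, 26.0 and 41.7 CPM with the program. Ptgs2, which encodes cyclooxygenase 2, and Mgl2, a lectin shared with cDC2, were also higher in all 4 libraries, with log2 ratios of 0.71, 0.93, 0.70 and 0.81 for Ptgs2 and of 0.61, 0.64, 1.07 and 3.34 for Mgl2. Bcl2a1a, Stap1, Clec4n, AY036118 and Clec4b1 completed the 10.

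Among the 10 lower without the program, Saa3, an acute-phase protein, stood at 11.8, 89.0, 13.5 and 245 CPM without the program against 181, 338, 1403 and 2375 CPM with it. The protease Ctsl stood at 647, 693, 935 and 1175 CPM against 2181, 1692, 2353 and 6172 CPM, and Selenop, which transports selenium, at 200.3, 280.4, 71.4 and 176 CPM against 763, 938, 384 and 390.4 CPM. For Igf1, an insulin-like growth factor, the log2 ratios were -1.98, -1.18, -1.74 and -1.13, and for Timp2, an inhibitor of metalloproteinases, -1.84, -1.62, -1.45 and -1.20. The complement gene C4b and Serpinb6a, Ms4a8a, Lyz1 and Ecm1 were the other 5. In Ad-COMBO only 19 Folr2-program macrophages stand behind these values.

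**Figure D3:**
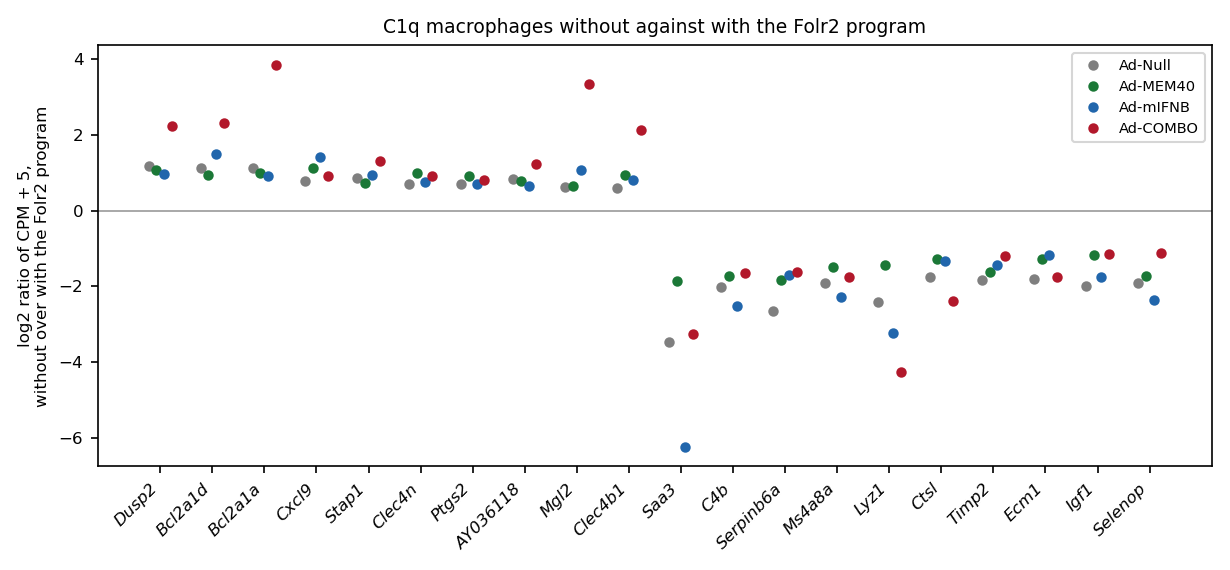
Log2 ratio of CPM + 5 in C1q macrophages without the Folr2 program to that in Folr2-program macrophages, 1 point per library, for the 10 higher and 10 lower genes chosen by their smallest ratio over the libraries. Points above 0 are higher without the program; Saa3 runs from -6.25 in Ad-mIFNB to -1.87 in Ad-MEM40, and in Ad-COMBO Lyz1 lies below it.

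With the CD40 ligand virus the macrophages differed little from those of the control virus. Genes were compared if either library reached 50 CPM and both together held 20 UMIs or more, and called when they differed by at least 1.5-fold on the CPM + 5 scale. Of 2902 such genes, 38 were called higher in Ad-MEM40 (1.31%) and 27 lower (0.93%), with a median log2 ratio of 0.05 over all of them. For the gene lists, here and below, a gene needed only the 20 UMIs and no minimum CPM. List counts thus include genes of low level that the all-gene shares leave out. In the inflammatory and acute-phase list 7 of 12 genes were at least 1.5-fold higher and none lower, with a median of 0.79. The largest ratio belonged to Saa3 (chromosome 7, 46711998 to 46715700, GRCm38), at 89.0 (85.2 to 93.0) CPM against 11.8 (10.0 to 13.8) CPM, a log2 ratio of 2.48 (2.25 to 2.73). Its 2003 UMIs came from 248 of 2891 cells. In cells without any UMI of Folr2, Lyve1, Cbr2 or Cd5l the log2 ratio was 2.52, and in cells thinned to 1000 UMIs each it was 1.86.

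Acod1, the enzyme that makes itaconate, stood at 96.8 CPM in Ad-MEM40 against 29.2 CPM in Ad-Null, a log2 ratio of 1.57 (1.42 to 1.73). Clec4d, a C-type lectin of inflamed myeloid cells, stood at 122 against 52.1 CPM (1.15). C3, the central complement protein, stood at 75.4 against 28.7 CPM (1.25). A metabolic enzyme and genes of innate recognition thus followed Saa3. AW112010, a transcript of activated immune cells, had a log2 ratio of 1.05, Calhm6 one of 1.14, Tppp3 one of 1.08 and the cystine transporter Slc7a11 one of 0.84. The guanylate-binding protein gene Gbp2 reached 279.5 against 143 CPM (0.95), and 8 of 19 genes associated with interferon gamma were at least 1.5-fold higher, with a median of 0.45. None of the 28 type I interferon response genes was at least 1.5-fold higher or lower, and their median was 0.21.

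Of 20 CD40 and NF-kB genes 2 were at least 1.5-fold higher and none lower, with a median of 0.13. Over all genes compared, which had to reach 50 CPM, 1.31% were called higher. Cd40 itself stood at 58.3 against 49.6 CPM. Among macrophage identity genes 1 of 22 was higher, the fractalkine receptor Cx3cr1 (0.71), and the list's median was 0.19. Of 13 heme and iron genes 3 were higher, Blvrb (0.80) and Hmox1 (0.65), enzymes of heme breakdown, among them. Of 18 lipid-associated macrophage genes 4 were higher, with a median of 0.27, and the sterol receptor Nr1h3 was at 0.76.

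Lower in Ad-MEM40 were Fn1, at 156 against 272 CPM (-0.79), and Mgl2, at 138 against 270.4 CPM (-0.95). Ear2, a ribonuclease of myeloid cells, had a log2 ratio of -0.9998, and the coagulation factor gene F7 one of -0.69. The sterol synthesis enzymes Msmo1 (-0.82) and Idi1 (-0.73) and the histone gene Hist1h2ap (-1.26) were also among the 10 lowest, as were Snrpf and the MHC class II chaperone gene H2-DMb2 (-0.75). The MHC class II list had 1 of 12 genes lower and a median of 0.01. Tumor transcripts differed in the same comparison: 5 of 9 melanoma genes were higher, Dct (1.05) and Pmel (1.21) among them. The summed level of the 9 was 191, 314, 429 and 192 CPM in the 4 libraries. This sum includes Gpnmb, which is also in the lipid-associated macrophage list. In Ad-mIFNB against Ad-Null 8 of the 9 were measured. There 1 was higher, Gpnmb at 2.04, and 2 were lower, with a median of -0.30. With each cell weighted equally Dct was at 0.20 and Pmel at 0.30, and their part in the result was not tested. The 6 measured fibroblast genes had a median of 1.65, but 1 cell held 95.4% of the Col3a1 UMIs and 74.0% of those of Sparc, and with equal weights the median was -0.46.

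With the interferon beta virus, every type I interferon response gene measured was higher. All 28 were at least 1.5-fold higher than in Ad-Null, with a median log2 ratio of 1.53, beside 225 of 2991 genes called higher in all (7.52%) and 76 called lower (2.54%), and an overall median of 0.03. Rsad2, which encodes viperin and blocks viral replication, stood at 148, 219.7, 1042 and 1424 CPM in the 4 libraries. That is 1042 (999 to 1086) CPM against 148 (142 to 155) CPM in Ad-Null, a log2 ratio of 2.77 (2.68 to 2.86). Ifit1, which binds viral RNA caps, stood at 57.0, 70.8, 478 and 334 CPM, and Isg15, a ubiquitin-like modifier, at 610.1, 641, 2035 and 1746 CPM. The log2 ratios of the Ifit genes were 3.31 for Ifit1bl1, 2.98 for Ifit3b, 2.96 for Ifit1, 2.68 for Ifit3 and 1.96 for Ifit2. That of the nucleotide kinase Cmpk2 was 2.47 and that of Oas3, a sensor of double-stranded RNA, 2.08. After thinning, Rsad2 had a UMI in 10.1, 14.2, 50.0 and 51.0% of the C1q macrophages, against 40.5, 40.2, 84.5 and 74.5% without thinning. A share of cells with a UMI at a fixed depth moves with the level, so share and level cannot be told apart. In the cDC1 set the thinned shares were 3.85, 5.65, 31.6 and 35.0% and the unthinned ones 37.9, 34.0, 84.7 and 87.1%.

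The promoters of 4 of these genes are shown because their levels divide: Ifit1, Isg15 and Cxcl10 were higher with interferon beta, and Cxcl9 was lower. Each line runs 5′ to 3′ on the gene's strand from 250 bases before to 50 bases after the start site, from RefSeq on build GRCm38.p6, and capitals mark the letters GAAANNGAAA on either strand, the core of an interferon-stimulated response element. Overlapping matches are joined. Ifit1 lies at chr19:34640639-34640938 on the plus strand, Isg15 at chr4:156200769-156201068, Cxcl10 at chr5:92348840-92349139 and Cxcl9 at chr5:92328030-92328329, all 3 on the minus strand.
Ifit1: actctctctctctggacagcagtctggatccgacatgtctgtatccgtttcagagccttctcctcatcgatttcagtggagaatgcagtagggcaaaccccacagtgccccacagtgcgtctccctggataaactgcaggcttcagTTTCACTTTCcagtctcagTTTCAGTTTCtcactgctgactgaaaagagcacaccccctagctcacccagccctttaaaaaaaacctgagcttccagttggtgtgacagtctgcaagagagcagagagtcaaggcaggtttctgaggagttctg
Isg15: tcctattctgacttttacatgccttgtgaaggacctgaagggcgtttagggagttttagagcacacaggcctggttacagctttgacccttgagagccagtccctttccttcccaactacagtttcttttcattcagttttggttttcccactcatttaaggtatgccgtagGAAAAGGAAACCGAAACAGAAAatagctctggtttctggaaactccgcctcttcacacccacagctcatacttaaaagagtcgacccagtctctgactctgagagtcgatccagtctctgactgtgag
Cxcl10: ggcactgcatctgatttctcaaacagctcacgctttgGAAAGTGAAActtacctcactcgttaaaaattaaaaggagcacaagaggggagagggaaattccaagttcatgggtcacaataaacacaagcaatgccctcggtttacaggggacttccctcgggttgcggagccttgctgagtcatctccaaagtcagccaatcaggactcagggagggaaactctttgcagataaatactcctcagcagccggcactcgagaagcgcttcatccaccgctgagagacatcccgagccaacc
Cxcl9: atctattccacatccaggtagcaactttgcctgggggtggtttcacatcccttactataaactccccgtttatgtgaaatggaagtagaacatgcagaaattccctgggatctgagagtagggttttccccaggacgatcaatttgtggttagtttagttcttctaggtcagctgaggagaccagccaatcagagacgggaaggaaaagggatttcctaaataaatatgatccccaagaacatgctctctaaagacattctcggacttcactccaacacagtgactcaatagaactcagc

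The Ifit1 promoter held 2 matches, that of Isg15 3 that overlap, that of Cxcl10 1 and that of Cxcl9 none. Over all 27025 promoters of the table, 3.49% held the response element core. Of the genes called higher in Ad-mIFNB, 183 of 225 matched the table, and 48 of them (26.2%, 20.0 to 33.2) held the core, against 5.66% of the 2386 matched genes that were compared and 3 of 51 (5.88%, 1.23 to 16.2) called lower. Of the genes called higher in Ad-MEM40, 8 of 27 matched (29.6%, 13.8 to 50.2) held it too, against 5.35% of the 2319 matched genes compared there. Of the 28 type I interferon response genes 23 matched, and 13 of these (56.5%, 34.5 to 76.8) held the core. Of the 20 listed genes associated with interferon gamma 13 matched, and 10 of these (76.9%, 46.2 to 94.96) held it. The core was thus not particular to the type I list. A match describes letters in this window and is not a binding site.

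The largest ratio among the named genes belonged to Lipg, endothelial lipase, at 16.8, 14.0, 228 and 46.5 CPM, a log2 ratio of 3.41 (3.18 to 3.65) in Ad-mIFNB against Ad-Null with UMIs in 44 of 148 cells. Cd300e, an activating receptor of monocytes, stood at 124 against 19.9 CPM (2.38). Rhoh was listed among the 10 highest (2.92), but 1 cell held 81.3% of its UMIs and without it the value was 0.57. The checkpoint ligand Cd274 had a log2 ratio of 1.07 and the transcription factor Irf7, which amplifies the interferon response, one of 1.46. Of the receptor and ISGF3 genes, 4 of 15 were higher, Stat2 among them (1.10), and 1 lower, the interferon gamma receptor chain Ifngr1 (-0.68), with a median of 0.08. MHC class I presentation had 7 of 19 genes higher and none lower, H2-Q6 at 1.42, with a median of 0.38. Lipid-associated macrophage genes had 8 of 18 higher and 2 lower (median 0.53), but 1 cell held 56.4% of the UMIs of Gpnmb, the highest of them at 2.04, or 1.12 without that cell.

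Chemokines split. Cxcl10, which like Cxcl9 signals through CXCR3, stood at 352, 433, 583 and 961 CPM and had a log2 ratio of 0.72 (0.63 to 0.81). Cxcl9 stood at 612, 579, 78.4 and 82.9 CPM, the lowest ratio of any gene named in this comparison, -2.89 (-3.12 to -2.67). A UMI of Cxcl9 was found in 18.9, 22.4, 4.93 and 14.3% of the thinned C1q macrophages and in 45.4, 42.4, 16.9 and 37.3% without thinning, and in the cDC1 set in 20.0, 21.6, 18.5 and 18.6% and 54.9, 57.1, 46.5 and 60.7%. Thinned, the shares of C1q macrophages were close to those of the cDC1 set with Ad-Null and Ad-MEM40 and lower in Ad-mIFNB. In Ad-COMBO 14.3% against 18.6% rests on 49 C1q macrophages, so that difference is uncertain. The cDC1 set is itself a known source of Cxcl9, which stood at 506, 581, 413 and 426 CPM there. Of 19 interferon gamma genes, 11 were higher, the GTPase Irgm1 (1.75) the most, and 2 lower, Cxcl9 and Ciita (-1.16), the master regulator of MHC class II transcription. Ccl5, a chemokine for T cells, had a log2 ratio of 1.61. In a separate list of 12 measured chemokine genes, which includes Cxcl9 and Cxcl10, 6 were lower and 2 higher (median -0.57).

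Macrophage and monocyte genes were uneven in Ad-mIFNB. Of 22 macrophage identity genes 4 were higher and 5 lower, with a median of -0.15. Cx3cr1 stood at 15.4 against 54.1 CPM (-1.53), Selenop at 71.4 against 200.3 CPM (-1.43) and Vcam1 had a log2 ratio of -1.35. Of 14 monocyte genes 7 were lower and 1 higher (median -0.57), and the coagulation factor gene F13a1 had a log2 ratio of -1.57. Il1b, the inflammatory cytokine, stood at 248 against 550.3 CPM (-1.14), and the lectin gene Clec4e had a log2 ratio of -1.28, or -0.39 with each cell weighted equally. Among 14 cell cycle genes 6 were lower and none higher, and the histone genes Hist1h2ap (-2.80) and Hist1h1e (-1.74) were among the 10 lowest. The rule capped Mki67 and Top2a in every library. MHC class II genes had 1 of 12 lower and a median of -0.25.

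**Figure D4:**
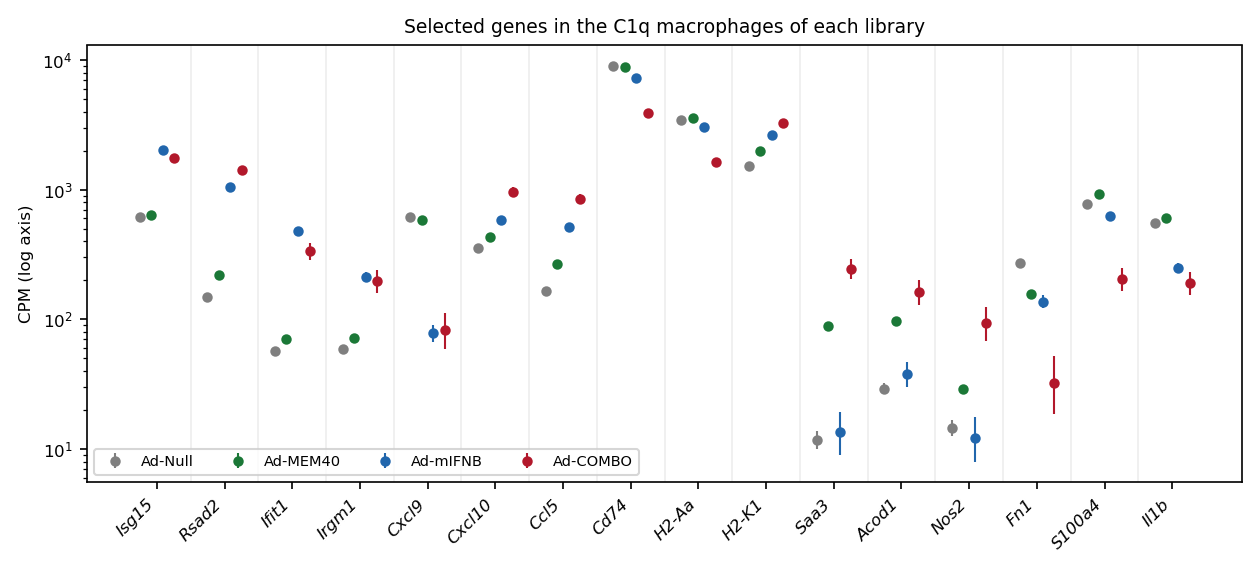
Level in CPM, on a log axis, of genes of the C1q macrophages in each library with exact 95% Poisson intervals for counting error. Rsad2 goes from 148 CPM in Ad-Null to 1042 in Ad-mIFNB and 1424 in Ad-COMBO, while Cxcl9 goes from 612 to 78.4 and 82.9 CPM.

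In Ad-COMBO the interferon genes were as high as with interferon beta alone, and MHC class II genes were lower than in any other library. Of 3150 genes compared with Ad-Null, 454 were called higher (14.4%) and 263 lower (8.35%), with a median of 0.02; these large counts come with 494298 UMIs of 51 cells. When each gene's totals left out the cell with most of its UMIs in each library, 275 were called higher and 465 lower. All 28 type I interferon response genes were at least 1.5-fold higher, with a median of 1.56. Rsad2 stood at 1424 (1321 to 1533) CPM, a log2 ratio of 3.22 (3.10 to 3.35) to Ad-Null, and was found in 38 of 51 cells, of which 1 held 26.3% of the UMIs. Ifit2 (2.77), Cmpk2 (3.08), Ifit1bl1 (2.71), Ifit3b (2.55) and Ifit3 (2.52) were the other antiviral genes among the 10 highest. The promoter core shown above was held by 55 of 365 matched genes called higher (15.1%). It was held by 5.63% of the 2504 matched genes compared and by 8 of 204 called lower (3.92%).

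Of the 12 MHC class II presentation genes, 11 were at least 1.5-fold lower in Ad-COMBO than in Ad-Null, with a median of -1.10. The invariant chain gene Cd74 stood at 9037, 8777, 7301 and 3927 CPM, a log2 ratio of -1.20 (-1.27 to -1.14). The class II chain genes H2-Aa and H2-Eb1 stood at 3460.2, 3559, 3038 and 1629 CPM and at 3618, 3619, 2945 and 1357 CPM, with log2 ratios of -1.08 and -1.41. Each of the 3 was lowest in Ad-COMBO and varied by less than 1.5-fold over the other libraries. H2-DMb1 (-1.68) and H2-DMb2 (-1.59), which load peptides, were among the 10 lowest of all genes, and only the cathepsin Ctss of this list was higher (0.73). The cells were sorted on MHC class II protein in every library, and 1 cell held 23.4% of the Cd74 UMIs in Ad-COMBO. With the C1q classes weighted equally the median of the list was -1.12, and with each cell weighted equally it was -1.28.

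Inflammatory genes differed one by one. Saa3 had the largest ratio, 245 (203 to 292) against 11.8 (10.0 to 13.8) CPM (3.89), from 9 cells of which 1 held 32.2% of the UMIs. Orm1, another acute-phase gene, had 26 UMIs, all of them in 1 cell, and none in Ad-Null. Cst7 (2.80) and H2-M2 (2.65), also among the 10 highest, were found in 2 cells each, with 86.2% and 97.0% of their UMIs in 1 cell, and stood at 0.58 and -0.57 without it. Nos2, which makes nitric oxide, stood at 14.6, 29.1, 12.1 and 93.1 CPM (log2 ratio 2.32 (1.83 to 2.79)), in 14 of 51 cells. Of 19 interferon gamma genes 15 were higher, with a median of 1.42, and 2 lower. The lower ones were Cxcl9, at 82.9 against 612 CPM (-2.81 (-3.29 to -2.37)), and Ciita (-1.50). With each cell weighted equally Cxcl9 was at -1.61 and Nos2 at 3.49.

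In Ad-COMBO, of 19 cytokine and growth factor genes 11 were higher and 3 lower (median 0.81), Il15, a cytokine for NK and memory T cells, at 2.26 (1.73 to 2.75) and Il1b at -1.51 (-1.82 to -1.22). In cells thinned to 1000 UMIs this median was -0.37, and without the cell with most UMIs of each gene it was 0.51. Cd40 stood at 49.6, 58.3, 71.8 and 176 CPM (log2 ratio 1.73) and Cd274 at 145, 195, 309 and 477 CPM (1.69). Of 19 costimulatory and inhibitory molecules, Cd274 the highest, 5 were higher and 1 lower (median 0.40). Ccl5 had a log2 ratio of 2.31. Of 20 CD40 and NF-kB genes 5 were higher and none lower (median 0.29). Of 18 lysosome and cathepsin genes 6 were higher and none lower (median 0.47), progranulin, Grn, at 1.16. Of 22 macrophage identity genes 6 were higher and none lower, with a median of 0.42, Mertk at 1.41 (0.90 to 1.87).

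Monocyte genes were lower as a list. In Ad-COMBO 11 of 14 were lower and 1 higher, with a median of -0.996, or -0.81 with the 2 genes without a UMI there set to the floor of 3 UMIs (6.07 CPM). The 11 include Hp, which had no UMI in Ad-COMBO and is bounded only at 1.26-fold lower or more. S100a4, a calcium-binding protein of migrating cells, stood at 780.4, 929, 629 and 204 CPM (log2 ratio -1.91 (-2.20 to -1.63)), with 48.5% of the Ad-COMBO UMIs in 1 cell and a log2 ratio of -2.72 without it. Fn1 stood at 272, 156, 137 and 32.4 CPM (-2.89 (-3.70 to -2.19)). Of 12 cDC2 genes 7 were lower, and 5 of the 12 had no UMI in Ad-COMBO; their median was -1.11, or -0.37 with those 5 at the floor. One of those 5, Cd209a, was at least 6.84-fold lower than its 41.5 CPM in Ad-Null. Another, Flt3, is counted among the 7 but is bounded only at 1.24-fold lower or more. Ifitm1 and the decoy receptor Il1r2 had 3 UMIs each in Ad-COMBO, with log2 ratios of -4.29 (-6.57 to -2.74) and -3.02 (-5.30 to -1.47). The protease Napsa (-2.20), the nuclear receptor Nr4a2 (-2.66) and the sterol enzyme Fdps (-1.72) were the other genes of the 10 lowest.

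**Figure D5:**
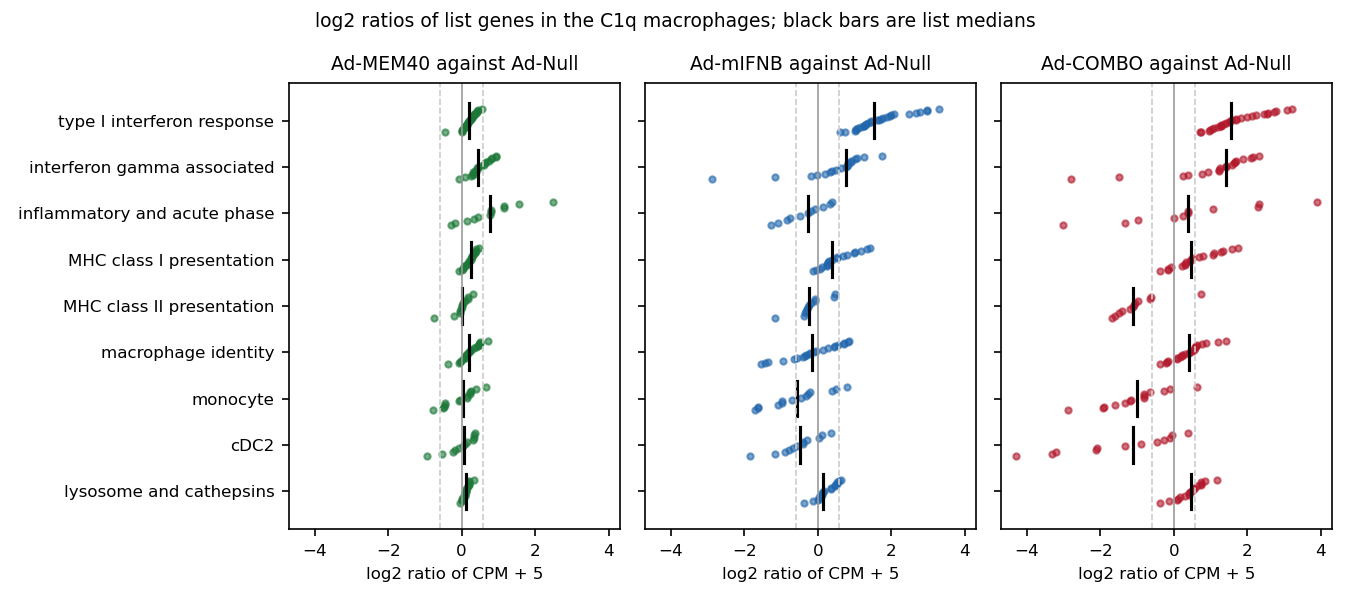
Log2 ratio to Ad-Null of each measured gene of the main gene lists in the C1q macrophages, by virus, with the list's median as a bar and 1.5-fold as dashed lines. The type I interferon medians are 0.21 (Ad-MEM40), 1.53 (Ad-mIFNB) and 1.56 (Ad-COMBO), and the MHC class II medians 0.01, -0.25 and -1.10.

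Ad-COMBO was also set against each single virus. These comparisons share the Ad-COMBO library with each other and with the one above, so they are not independent. Against Ad-mIFNB, 287 of 3146 genes were called higher (9.12%) and 230 lower (7.31%), with a median of -0.04. Without the cell with most UMIs of each gene, 157 were higher and 367 lower. The type I interferon list had 2 of 28 genes higher, 1 lower and a median of -0.03, and its summed level was 3142, 3575, 10359 and 10732 CPM in the 4 libraries. MHC class II genes differed, with 8 of 12 lower and a median of -0.81. Of 8 inflammatory genes 6 were higher and 1 lower (median 1.54), Saa3 at 3.75 and Nos2 at 2.52. Interferon gamma genes had 10 of 19 higher and none lower (median 0.62), and macrophage identity genes 9 of 22 higher and none lower (median 0.32). Orm1, Cst7 and H2-M2 were the rest of the 5 highest and rest on 1 or 2 cells. Ly6c2, a monocyte surface antigen, stood at 83.3, 98.5, 149 and 24.3 CPM (-2.39 against Ad-mIFNB), from 4 cells in Ad-COMBO with 75% of the UMIs in 1 and a log2 ratio of -3.50 without that cell. Ifitm1 (-4.33), Il1r2 (-2.95), Napsa (-2.75) and Cd300e (-2.61) were the other 4 lowest.

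Against Ad-MEM40, 386 of 3194 genes were called higher in Ad-COMBO (12.1%) and 313 lower (9.8%), with a median of -0.03. Without the cell with most UMIs of each gene, 221 were higher and 565 lower. Of 28 type I interferon genes 27 were higher, with a median of 1.36, led by Rsad2 (2.67) and Cmpk2 (2.63). Slfn4, an interferon-inducible gene of myeloid cells, stood at 110.0, 76.2, 328 and 509.8 CPM (2.66) and, with Orm1 (2.76) and H2-M2 (2.75), completed the 5 highest. Without their leading cell Orm1 was at -0.63 and H2-M2 at -0.46. MHC class II genes had 11 of 12 lower (median -1.11). Interferon gamma genes had 13 of 19 higher and 3 lower (median 0.86), with Cxcl9 at -2.73. Inflammatory genes had 4 of 12 higher and 4 lower, with a median of 0.11. Monocyte genes had 9 of 14 lower and none higher, with a median of -1.29, or -0.55 with 2 genes at the floor. Ifitm1 (-4.63), Il1r2 (-2.73), Nr4a2 (-2.58) and S100a4 (-2.16) were the lowest beside Cxcl9.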

How the data were processed

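Single-cell RNA-seq (10x Genomics, 3′ end) was analysed in 4 libraries, 1 per virus, each of sorted cells from 3 pooled tumors. The deposited matrices hold raw UMI counts per gene and barcode; per the file headers they were made with Cell Ranger 6.0.0, while the submitters' processing notes name Cell Ranger 3.0, Seurat 4.0 and the mouse build mm10. Barcodes were filtered and the cells chosen by the rule given above; the cells and the 35 gene lists (458 of 462 entries matched) were chosen with earlier results of these data known. The genes named are the 10 highest and 10 lowest against Ad-Null, the 5 highest and 5 lowest between Ad-COMBO and each single virus, the 10 higher and 10 lower against Folr2-program macrophages by their smallest ratio over the libraries, the cells' markers, and the ends of lists. Counts of the cells were summed per library and divided by their total (CPM). Intervals are exact Poisson for CPM, conditional exact binomial for ratios and Clopper-Pearson for shares. With 1 library per treatment there was no test. Depth was 2143482 to 22503213 UMIs except 494298 in Ad-COMBO, where 3 UMIs are 6.07 CPM against 0.226 in Ad-Null. Ratios add a pseudocount of 5 CPM and leave out the genes of the rule, and mitochondrial, ribosomal protein and antigen receptor genes are not named, and a few further items are not reported here. Python 3.11.15, numpy 2.4.6, scipy 1.17.1, pandas 2.3.3 and scanpy 1.11.5 (Scrublet, as an alternative only) were used, and the ratio step was tested on simulated data. Gene coordinates are from GENCODE M21 on GRCm38, promoters from RefSeq on GRCm38.p6. Alternatives changed the filters, doublets, C1q limit, program limit, pseudocount, cell weights, depth, scaling and minimum level.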

Additional observations from a re-analysis of the deposited data

Results flagged for a closer look

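The 2 sets of C1q macrophages differed in the direction of 9 ratios to Ad-Null. Each was at least 1.5-fold up in one set and at least 1.5-fold down in the other. Both counting intervals also lay wholly above or below no change. The genes screened were those of the lists and those named between libraries, with at least 20 UMIs in each set. Their number is not given here, so the 9 cannot be read as a share. Each set has 1 library per virus, and the difference was not tested. Values are log2 ratios, first without and then with the Folr2 program. In Ad-mIFNB the fractalkine receptor Cx3cr1 stood at -1.53 and 1.33, and Ffar2, a receptor for short-chain fatty acids, at -0.89 and 0.80. In Ad-COMBO Cx3cr1 stood at 0.64 and -2.33, with UMIs in 8 of 51 cells without the program, of which 1 held 32.6%. With each of those cells weighted equally it was at -0.46. The survival gene Bcl2a1a stood at 0.67 and -2.05, the growth factor gene Pdgfb at 0.81 and -1.36, and the metalloelastase gene Mmp12 at 1.34 and -0.87, with 43.8% of the Mmp12 UMIs without the program in 1 cell. The other 3 were lower without the program: the heat shock gene Hspa1b at -0.64 and 0.68, the monocyte gene Plac8 at -1.17 and 1.33, and Spp1, which encodes osteopontin, at -1.20 and 0.92. In cells thinned to 1000 UMIs the Ad-COMBO ratios without the program turned to -0.80 for Cx3cr1 and -1.08 for Pdgfb, the direction they have with it. Thinned, Mmp12 stood at 0.51, Hspa1b at -0.11 and Spp1 at -0.13, less than 1.5-fold. The Ad-COMBO ratios with the program rest on 19 cells.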

How the results depend on the processing

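No paired analysis was possible because each treatment has 1 library, and for the same reason none could be left out. The 110 printed gene ratios of at least 1.5-fold between libraries were recomputed under 11 planned settings and 1 chosen after the data were seen. Of the 1320 values, 1039 stayed within the ratio's counting interval, 275 left it in the same direction and 6 turned. The cells' share of barcodes was 9.35% in Ad-Null, 15.5% in Ad-MEM40 and 5.57% in Ad-COMBO with at least 1000 genes and at most 5% mitochondrial UMIs. With at least 30 C1q UMIs per 10000 it was 7.67, 12.6, 6.08 and 5.66% in the 4 libraries, with no UMI of the Folr2 program 9.70, 13.9 and 6.41% in Ad-Null, Ad-MEM40 and Ad-mIFNB, and without cells that carry markers of other lineages 9.98% in Ad-Null and 16.1% in Ad-MEM40. The share was highest in Ad-MEM40 under each of these. With at least 1000 genes and at most 5% mitochondrial UMIs Ad-mIFNB was at 7.88%, nearer to Ad-Null than in the main setting. Intervals were not computed for these settings. Whether those of both interferon beta libraries would still lie below that of Ad-Null is thus not known. Leaving out marked doublets or shared barcodes kept all shares within their intervals.

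Counts of genes past 1.5-fold depended on the setting. With cells thinned to 1000 UMIs there were 66 higher in Ad-MEM40, 594 higher and 381 lower in Ad-mIFNB, and 936 higher and 771 lower in Ad-COMBO, each against Ad-Null, 186 higher in Ad-COMBO against Ad-mIFNB, and 977 higher and 805 lower against Ad-MEM40. A minimum of 20 CPM in place of 50 gave 62 higher in Ad-MEM40, 162 lower in Ad-mIFNB, 862 higher and 594 lower in Ad-COMBO, 697 and 566 against Ad-mIFNB, and 741 and 681 against Ad-MEM40; more genes are compared there. With each cell weighted equally 155 were lower in Ad-mIFNB, and 689 were higher and 549 lower in Ad-COMBO, 524 and 536 against Ad-mIFNB, and 601 and 570 against Ad-MEM40. With C1q classes weighted equally 516 were lower in Ad-COMBO against Ad-Null, 505 against Ad-mIFNB and 534 against Ad-MEM40. Without the cell with most UMIs of each gene, the setting chosen after seeing the data, 275 were higher and 465 lower in Ad-COMBO, 157 and 367 against Ad-mIFNB, and 221 and 565 against Ad-MEM40; taking out the top cell lowers the library with fewer cells more.

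The fibroblast median in Ad-MEM40 turned to -0.057 without cells of other lineages and -0.46 with equal weights, and the cytokine median in Ad-COMBO to -0.37 in thinned cells. Without their top cell, H2-M2 turned to -0.57 against Ad-Null and -0.46 against Ad-MEM40, and Orm1 to -0.63 against Ad-MEM40. In Ad-COMBO against Ad-Null, Cx3cr1 turned to -0.46 with equal weights and -0.80 in thinned cells, and Pdgfb to -1.08 in thinned cells. Beyond those that rest on 1 cell, the cause was not tested. Depth limits Ad-COMBO most, where 3 UMIs are 6.07 CPM.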
